A study of Mus musculus with 5 samples.

Results

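Mitochondrial ribosomal proteins are encoded by nuclear genes, made in the cytosol and imported into mitochondria, where they join the ribosomal RNA of the mitochondrial genome to build a large and a small subunit. The assembled ribosome translates the messages of the mitochondrial genome, which encode core subunits of the respiratory chain and of ATP synthase. Members were taken as the protein-coding genes of GENCODE M21 (mouse build GRCm38) whose symbol is Mrpl, for the large subunit, or Mrps, for the small subunit, followed by a number. The rule found 78 genes among the 54838 listed in the files, 49 Mrpl and 29 Mrps, spread over 17 chromosomes with 11 of them on chromosome 11. It follows symbols, not structures: Mrps30 and Mrps18a encode proteins that sit in the large subunit, Mrps36 encodes a component of the 2-oxoglutarate dehydrogenase complex, and 5 subunit genes carry other names (Dap3, Ptcd3, Chchd1, Aurkaip1 and Gadd45gip1).

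Expression was measured by total RNA sequencing in N2a cells, a mouse neuroblastoma line, with Ewsr1 knocked down by siRNA (siEwsr1, n = 3) and in the same cells given control siRNA (siCtrl, n = 2). Ewsr1 is a member of the FET family, whose proteins bind RNA and DNA. In both groups 50000 cells were transfected repeatedly with a lipid reagent and collected 24 hours after the last round, and 2 µg of RNA was freed of ribosomal RNA without selection for polyadenylated RNA. Separate cultures for the replicates are not stated in the labels, and the p-values reflect library-to-library spread that may be technical.

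The libraries held 15045774 to 21339459 counted reads, totals that were solved from the deposited values. Ewsr1 itself stood at 71.7 and 72.3 RPKM (reads scaled to exonic length and to the counted reads of the library) in the siCtrl libraries and at 35.7, 36.3 and 37.6 RPKM in the siEwsr1 libraries, a log2 fold change of -0.96 with an adjusted p of 0.00101 by limma. On the first principal component of all tested genes, which held 45.2% of the variance, siEwsr1 replicate 3 scored -0.020, between the siCtrl libraries (-21.7 and -28.7) and the other siEwsr1 libraries (16.6 and 33.9). Of the marker genes of nerve and neuroblastoma cells, 15 of 17 passed the filter on low reads. Of these, 5 were called higher in siEwsr1, against 2.38% of all tested genes, and 0 lower. Only 1 of 6 immune, 1 of 6 epithelial and 4 of 10 fibroblast markers passed that filter. Immune markers summed to 0.603 to 1.002 RPKM and epithelial markers to 0.513 to 1.05 RPKM per library. Fibroblast markers summed to 36.7 and 36.9 RPKM in siCtrl and to 24.6 to 31.4 RPKM in siEwsr1. The median of the 4 tested was only 1.604 and 1.455 RPKM in siCtrl replicates 1 and 2. Acta2 among them was called lower, against 2.77% of all tested genes. The part of these differences in the members' values was not tested, and in bulk RNA fewer cells of a type and less RNA per cell cannot be told apart.

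No mitochondrial ribosomal protein gene was called higher or lower after the knockdown. Of the 78 members, 77 passed the filter on low reads, with 242 to 3727 reads in each library. In limma's test over 14948 genes, with Benjamini-Hochberg adjustment and a threshold of 0.05, 0 of the 77 were called higher, against 2.38% of all tested genes, and 0 were called lower, against 2.77%. At an unadjusted p under 0.05, 15 members passed (10 higher and 5 lower in siEwsr1), 19.5% of those tested against 22.0% of all tested genes. The smallest adjusted p of a member was 0.0663. A fit by limma-voom on the recovered reads also called 0 members, against 2.38% of all tested genes higher and 3.12% lower. The change of a single member ran from a log2 fold change of -0.37 to 0.39, and the middle 50% of members lay between -0.093 and 0.13, against -0.21 to 0.18 for all tested genes.

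The intervals show how precisely each change was estimated from the restored values. They hold for 1 gene at a time, rest on library spread that may be technical, and take the restored decimal positions as right. For each of the 77 tested members, the 95% interval of the log2 fold change lay within a 2-fold change in either direction, and for 67 it lay within a 1.5-fold change. Of all 14948 tested genes, 11788 and 7789 did so. In RPKM, no tested member differed by more than 1.82-fold between any 2 of the 5 libraries.

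**Figure D1:**
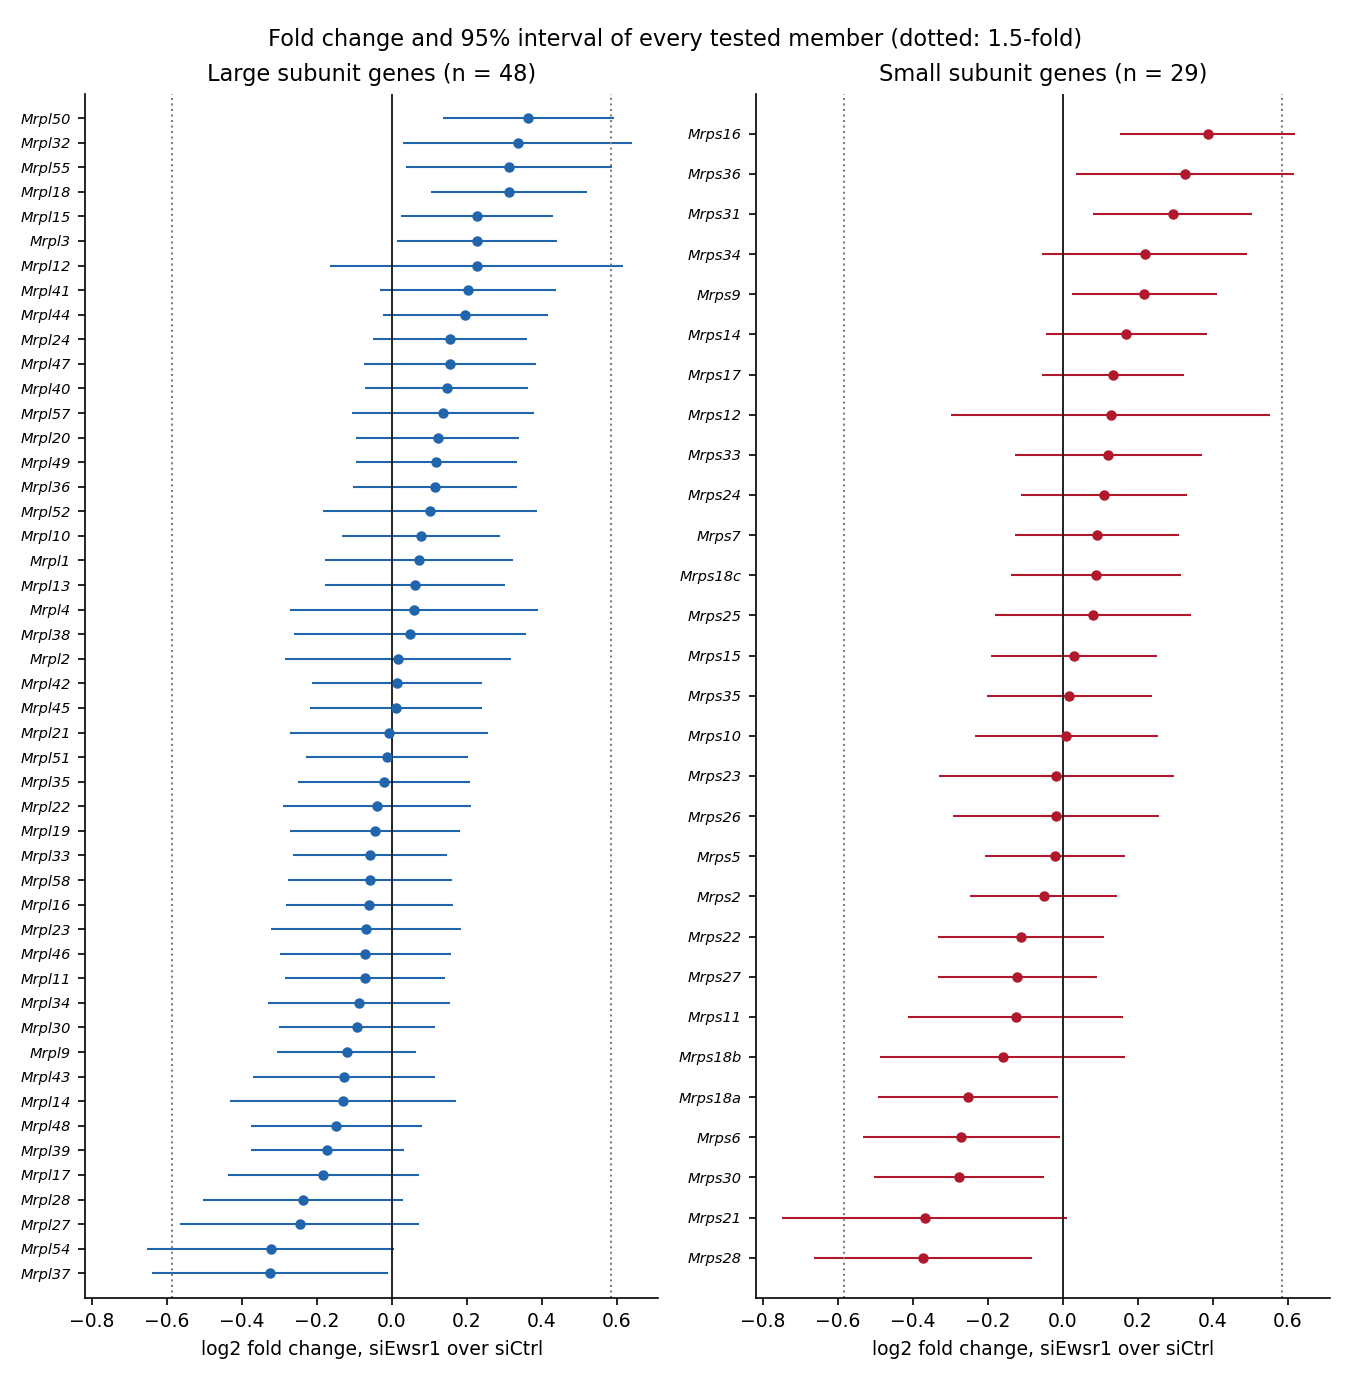
Log2 fold change of siEwsr1 over siCtrl (x axis) for every tested member, large subunit genes on the left (48) and small subunit genes on the right (29), sorted by value. Points are limma estimates on the log2(RPKM + 0.1) scale, bars are 95% intervals and dotted lines mark a 1.5-fold change; the estimates spread from -0.37 to 0.39 on both sides of 0, and 67 of 77 intervals stay inside the dotted lines.

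The large and small subunit genes had medians close to 0 and to each other. The median log2 fold change was 0.013 over the 48 tested Mrpl genes and 0.017 over the 29 Mrps genes, a difference of -0.0039, with a median of 0.014 over both and of -0.013 over all tested genes. Of the Mrpl genes 25 had a positive and 23 a negative estimate, and of the Mrps genes 16 and 13. When Mrps30 and Mrps18a were counted with the large subunit, where their proteins sit, and Mrps36 was left out, the medians were 0.0018 and 0.023.

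Library by library the subunit medians stayed close to 0. Against the siCtrl mean, the Mrpl median was 0.018, -0.037 and 0.035 in siEwsr1 replicates 1, 2 and 3. The Mrps median was 0.014, -0.0093 and 0.062 in the same libraries. Both subunits were lowest in replicate 2 and highest in replicate 3. Between the controls, the ratio of siCtrl replicate 2 to replicate 1 had a median of 0.046 for Mrpl and of 0.077 for Mrps genes, and 52 of 77 members were higher in replicate 2. The shift between the controls was thus larger than the median of any siEwsr1 library for either subunit.

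**Figure D2:**
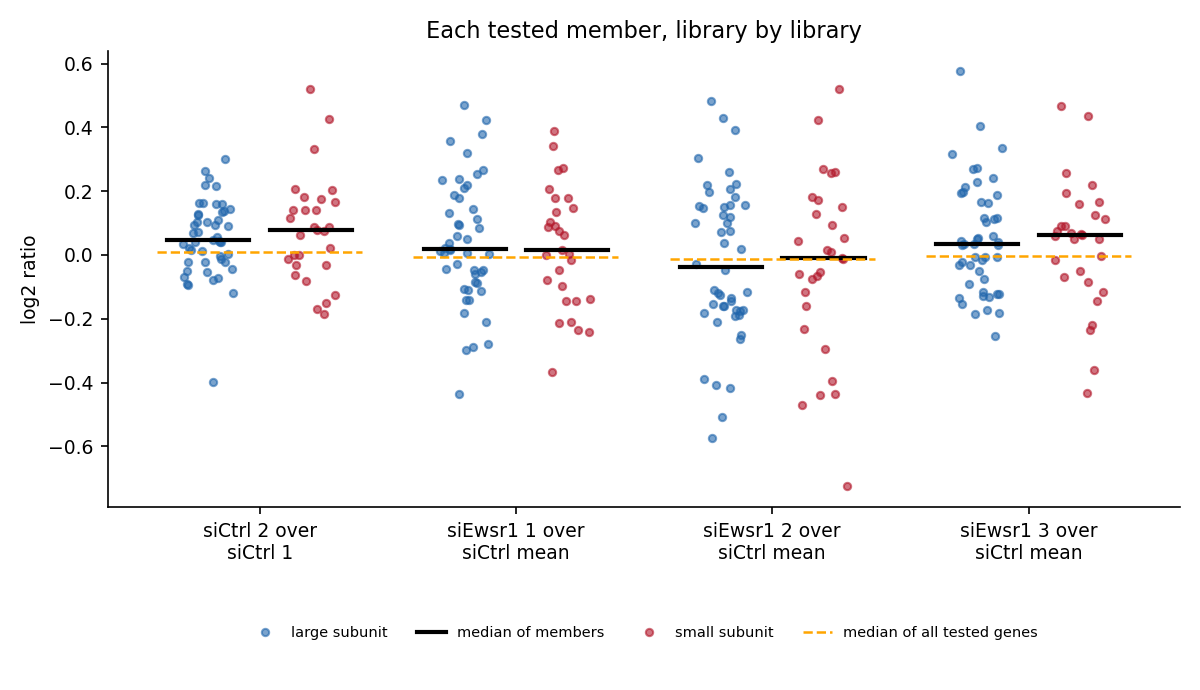
Log2 ratio (y axis) of each tested member between the siCtrl libraries and for each siEwsr1 library against the siCtrl mean, with large subunit genes in blue and small subunit genes in red. Black bars are the medians over members and dashed orange lines the medians over all tested genes; the black bars lie between -0.037 and 0.077, and the spread of members is widest in siEwsr1 replicate 2.

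Among the members with the largest estimates upward, Mrps16, the counterpart of bacterial S16, whose human gene is mutated in a combined respiratory chain deficiency, stood at 11.5 and 12.1 RPKM in siCtrl and at 13.9, 15.5 and 16.4 RPKM in siEwsr1. All siEwsr1 libraries were above both controls. The gene (ENSMUSG00000049960) lies on chromosome 14 at 20389304 to 20393634, minus strand. Its log2 fold change was 0.39 ± 0.105 (SE) with a limma adjusted p of 0.0663. Mrpl50, a large subunit protein with no bacterial counterpart, stood at 17.8 and 17.7 RPKM against 23.4, 23.5 and 21.2 RPKM. Its controls were nearly equal and below every siEwsr1 library. The gene (ENSMUSG00000044018) lies on chromosome 4 at 49512596 to 49521093, minus strand. The estimate was 0.36 ± 0.103 with an adjusted p of 0.0737.

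Mrpl32, whose precursor is matured by the m-AAA protease of the inner membrane, had 8.87 and 8.23 RPKM in siCtrl and 11.7, 11.8 and 8.94 RPKM in siEwsr1. Replicate 3 lay at the level of the controls and, after library scaling, the groups overlapped, at an estimate of 0.34 ± 0.137 (adjusted p = 0.190, limma). Mrps36, which belongs to 2-oxoglutarate dehydrogenase and not to the ribosome, stood at 28.2 and 25.6 RPKM against 33.4, 37.8 and 29.2 RPKM. The siEwsr1 libraries were all higher, replicate 3 least, at 0.33 ± 0.131 (adjusted p = 0.182, limma). Mrpl55, a mitochondrion-specific large subunit protein, stood at 25.3 and 29.7 RPKM against 35.1, 29.98 and 36.7 RPKM. Here siEwsr1 replicate 2 lay next to the higher control, and the estimate was 0.31 ± 0.123 (adjusted p = 0.175, limma).

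Downward, Mrps28 (ENSMUSG00000040269, chromosome 3, 8802146 to 8923918, minus strand), related to bacterial S1, had 46.9 and 63.5 RPKM in siCtrl and 41.5, 40.6 and 42.8 RPKM in siEwsr1. The siEwsr1 libraries were close together and below both controls, while the controls were far apart, at -0.37 ± 0.130 (adjusted p = 0.132, limma). Mrps21, the counterpart of bacterial S21, stood at 38.6 and 44.9 RPKM against 34.7, 24.7 and 37.9 RPKM. Replicate 2 was the lowest and replicate 3 almost reached the lower control, at -0.37 ± 0.171 (adjusted p = 0.240, limma).

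Mrpl37 and Mrpl54, large subunit proteins specific to mitochondria, showed one pattern across the libraries. Mrpl37 had 10.8 and 11.7 RPKM in siCtrl and 8.15, 7.75 and 11.1 RPKM in siEwsr1. Mrpl54 had 48.8 and 60.7 RPKM in siCtrl and 44.0, 35.8 and 50.6 RPKM in siEwsr1. In both, siEwsr1 replicates 1 and 2 were below the controls and replicate 3 was among them, at estimates of -0.33 ± 0.142 (adjusted p = 0.213) and -0.32 ± 0.148 (adjusted p = 0.235) by limma. Mrps30 (ENSMUSG00000021731, chromosome 13, 118378381 to 118387252, minus strand), a large subunit protein despite its symbol, had 14.7 and 14.8 RPKM against 12.3, 13.0 and 11.01 RPKM. Its siEwsr1 libraries were all below the controls, at -0.28 ± 0.102 (adjusted p = 0.148, limma).

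**Figure D3:**
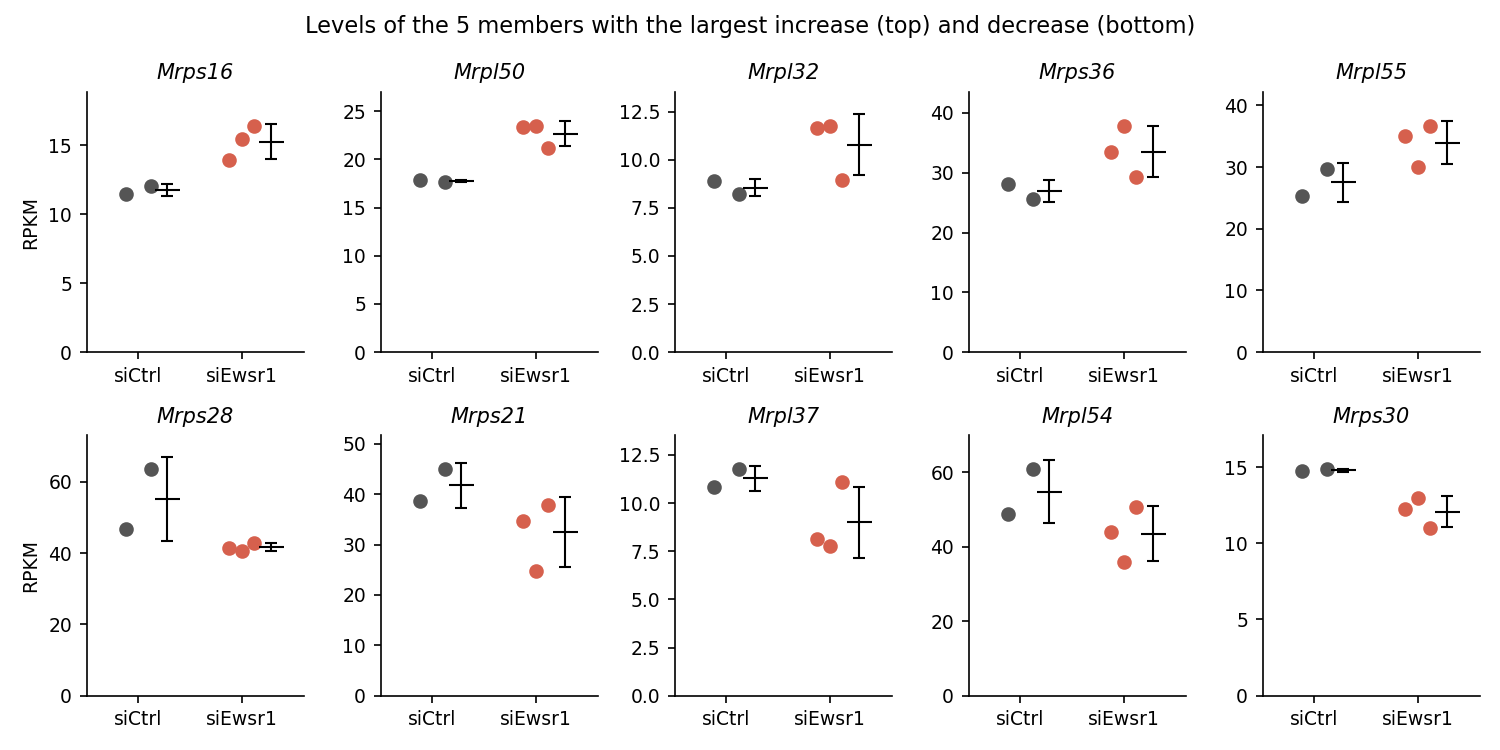
RPKM (y axis, from 0) in each library for the 5 members with the largest increase (top row) and the 5 with the largest decrease (bottom row). Grey points are the 2 siCtrl and red points the 3 siEwsr1 libraries in replicate order, and black bars show the mean ± SD; Mrpl50 and Mrps30 have the tightest controls, and in Mrpl32, Mrpl37 and Mrpl54 siEwsr1 replicate 3 lies at the controls.

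Groups that did not overlap were common in these libraries. Every siEwsr1 library was above both controls in 20 members, 26.0% of those tested, against 19.3% of all tested genes. Every siEwsr1 library was below both controls in 9 members, 11.7%, against 20.5% of all tested genes. The first set held 12 of 48 tested Mrpl and 8 of 29 Mrps genes. The second held 3 Mrpl genes (6.25%) and 6 Mrps genes (20.7%). This split follows symbols, and Mrps30 and Mrps18a, both in the second set, encode large subunit proteins. With these counted by place and Mrps36 left out, the second set held 5 of 50 large and 4 of 26 small subunit genes. The first set then held 12 and 7. The difference between the subunits in these counts was not tested. Mrpl18 (ENSMUSG00000057388, chromosome 17, 12911349 to 12916345, minus strand), the member with the highest RPKM, was in the first set with 88.2 and 90.4 RPKM in siCtrl and 112.4, 115 and 102.4 RPKM in siEwsr1, at 0.31 ± 0.093 (adjusted p = 0.0862, limma).

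The call of 0 members depended on siEwsr1 replicate 3. Without it, limma called 11 members higher, 14.3% of those tested against 12.8% of all tested genes, and 7 lower, 9.09% against 12.5%. The members called higher were Mrpl3, Mrpl15, Mrpl18, Mrpl32, Mrpl47, Mrpl50, Mrps9, Mrps14, Mrps16, Mrps31 and Mrps36. Those called lower were Mrpl27, Mrpl28, Mrpl37, Mrpl54, Mrps18a, Mrps21 and Mrps28. The largest of these changes was 0.48 ± 0.0840 for Mrpl32 (adjusted p = 0.000873, limma without that replicate). Both lists held genes of both subunits, and their shares stood near those of all genes.

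The 3 genes related to bacterial S18 lay at different estimates. Mrps18a, whose protein sits in the large subunit, had 25.3 and 25.5 RPKM in siCtrl and 21.5, 18.4 and 23.6 RPKM in siEwsr1, all lower, at -0.25 ± 0.108 (adjusted p = 0.203, limma). Mrps18b had 24.7 and 26.4 RPKM against 23.7, 18.04 and 26.9 RPKM, with replicate 3 above both controls, at -0.16 ± 0.146 (adjusted p = 0.559, limma). Mrps18c, the small subunit counterpart, had 32.8 and 31.2 RPKM against 32.8, 34.8 and 33.4 RPKM, within a narrow range, at 0.088 ± 0.102 (adjusted p = 0.657, limma). The difference between these genes was not tested. Mrpl58, a peptidyl-tRNA hydrolase built into the large subunit that can rescue stalled ribosomes, had 19.5 and 19.7 RPKM in siCtrl and 18.5, 17.0 and 20.4 RPKM in siEwsr1. The groups overlapped, with replicate 3 on top, at -0.059 ± 0.098 (adjusted p = 0.773, limma).

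The widest spread within a group was that of Mrpl12, the stalk protein of the large subunit, which has also been reported to bind the mitochondrial RNA polymerase. It had 44.9 and 34.3 RPKM in siCtrl and 37.4, 42.6 and 59.0 RPKM in siEwsr1. Replicate 3 was the highest library by far and replicate 1 lay between the controls, so the estimate of 0.23 ± 0.176 (adjusted p = 0.490, limma) came with a within-group range of 0.62 on the log2 scale. Mrps12, the counterpart of the bacterial decoding-site protein S12, had 14.8 and 21.4 RPKM against 16.9, 17.3 and 24.3 RPKM, also highest in siEwsr1 replicate 3. Between siEwsr1 replicates 3 and 2, the 39 members with the shorter exonic lengths had a median log2 ratio of 0.14 and the 38 longer ones of -0.00010. Across the 77 members the log2 ratio and log2 length had r = -0.334, and across 11996 tested protein-coding genes r = -0.124, as a description of values that share these libraries.

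Levels differed far more between members than between groups. Mean RPKM over the 5 libraries ran from 3.54 to 102, a 28.7-fold range, with a median of 26.2 for tested Mrpl and 21.6 for tested Mrps genes. The summed RPKM of Mrpl genes was 2.31 to 2.44 times that of Mrps genes in every library. Together the members summed to 5.28% and 5.38% of the RPKM of the cytosolic ribosomal protein genes in siCtrl and to 5.61%, 5.86% and 5.71% in siEwsr1. The member sums overlapped between groups, at 2018 and 2129 RPKM against 2081, 1991 and 2170 RPKM. The cytosolic sums were lower in every siEwsr1 library, at 38230 and 39550 RPKM against 37080, 33970 and 38020 RPKM.

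The 5 highest members all belong to the large subunit. Mrpl18, counterpart of the bacterial protein that binds 5S rRNA, averaged 102 RPKM, and Mrpl20, counterpart of an early assembly protein in bacteria, averaged 100.2 RPKM. Mrpl20 had 95.9 and 95.3 RPKM in siCtrl and 110, 91.9 and 108 RPKM in siEwsr1, so the order of the top pair changed between libraries. Mrpl34 (72.6 RPKM), Mrpl28 (67.7 RPKM) and Mrpl2 (56.6 RPKM), all with bacterial counterparts, followed. Mrpl34 and Mrpl28 overlapped in their ranges: 64.9 to 80.2 RPKM for Mrpl34 and 55.1 to 76.1 RPKM for Mrpl28. The 5 lowest tested members were Mrps10 (3.54 RPKM), Mrps35 (7.06 RPKM), Mrpl17 (7.71 RPKM), Mrps25 (7.94 RPKM) and Mrpl48 (8.96 RPKM). Mrps10 stayed between 3.34 and 3.71 RPKM in all libraries, below every other tested member.

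This order rests on the length by which reads are divided. The lengths cover every annotated exon of a gene, except for 5 members whose length was solved from the values and was shorter. Among these are Mrpl28 (1274 bases used against 1380 annotated) and Mrpl16 (1122 against 3169). Lengths ran from 607 to 8631 bases. The log2 mean level of the 77 members was lower at greater log2 length (r = -0.709, a description across genes). With the length of the longest coding transcript in its place, Mrps10 moved from rank 77 to rank 53, Mrpl33 from 71 to 4 and Mrpl23 from 69 to 13, while Mrpl20 moved from rank 2 to rank 1 and Mrpl18 from 1 to 5. The lowest member was then Mrpl17, at 8.03 RPKM. Fold changes do not use the length and are untouched by this choice apart from the added 0.1 RPKM.

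**Figure D4:**
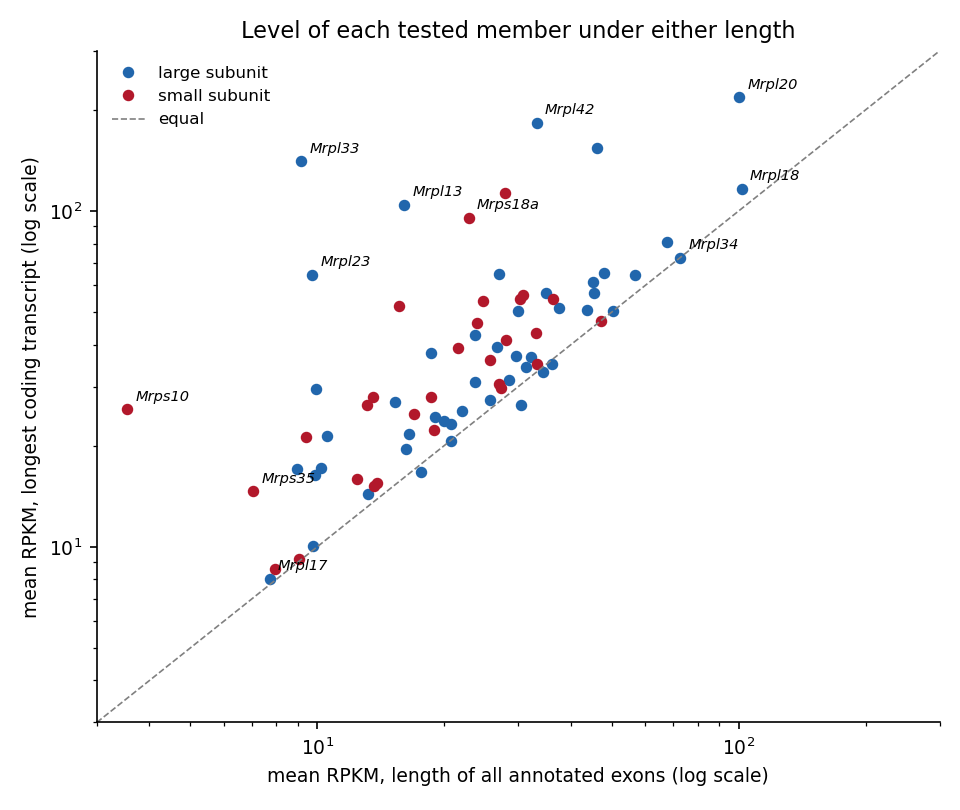
Mean RPKM over the 5 libraries for each tested member, with large subunit genes in blue and small subunit genes in red. Reads were divided by the length of all annotated exons, or a solved length for 5 members (x axis, log scale). On the y axis (log scale) they were divided by the length of the longest coding transcript. Points on the dashed line have equal values; Mrps10, Mrpl33, Mrpl23 and Mrpl13 lie far above it, and Mrpl18, Mrpl34 and Mrpl17 lie near it.

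Mrpl53 was the member left untested, with 1 read in siCtrl replicate 2, 1 in siEwsr1 replicate 2 and 0 in the other libraries. Of its exonic bases, 88.0% are shared on the same strand with the annotated gene Gm42688, and how the authors counted reads of overlapping genes is not given, so its level is uncertain. Mrps34 shares 37.0% of its exonic bases with Nme3 on the same strand and 63.4% with Mapk8ip3 on the other, and Mrps25 shares 69.8% with Nr2c2 on the other strand. In all, 10 members share over 20% with another gene. The strand setting of the counting is not given, so antisense overlaps may also touch these values.

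Members often have another gene that starts close upstream on the opposite strand. Pairs that overlap at their starts, such as Mrpl46 and Mrps11, were not counted. A protein-coding gene on the opposite strand starts within 1000 bases upstream of 18 members (23.1%), against 10.9% of 11996 tested protein-coding genes. Among the members with the largest estimates these are Mrpl50, paired with Zfp189 at 83 bases, Mrpl32, paired with Psma2 at 75 bases, Mrpl37, paired with Cyb5rl at 120 bases, and Mrpl54, paired with Apba3 at 26 bases.

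Promoter windows of 300 bases (250 before to 50 after the start site, from RefSeq on GRCm38.p6) were found for 69 of the 78 members. They were searched on both strands for GCATGCG, the core of the NRF1 site, CCGGAAG, the site of ETS factors such as GABP, and AAGATGG, the core of the YY1 site, since NRF1 and GABP are known regulators of nuclear genes for mitochondrial proteins. The NRF1 core was in 11.6% of member windows, against 3.64% of all 27025 windows and 6.95% of those of tested protein-coding genes. The ETS letters were in 34.8%, against 9.16% and 19.4%. The YY1 core was in 18.8%, against 6.45% and 7.50%. At least 1 of them was in 36 windows (52.2%), in 23 of 43 Mrpl and 13 of 26 Mrps windows.

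Members with and without a match both had medians near 0. The median log2 fold change was -0.019 over the 35 tested members with a match and 0.072 over the 33 without. By motif, it was -0.090 for the 8 with the NRF1 core, -0.039 for the 23 with the ETS letters and 0.090 for the 13 with the YY1 core. The windows of 2 members with higher and 2 with lower estimates are shown to give the range of matches among members with the largest changes, each 5′ to 3′ in the gene's direction with matches in capitals. Mrpl50 (chromosome 4, 49521034 to 49521333, minus strand) has none. The windows of Mrps16 and Mrps30, also among the members with the largest changes but not shown, have none either. Mrpl32 (chromosome 13, 14612988 to 14613287, minus strand) has 6, with the YY1 core near its 5′ end and the NRF1 core 5 times, including overlapping matches on both strands. Mrps21 (chromosome 3, 95871465 to 95871764, minus strand) has the ETS letters, and Mrpl37 (chromosome 4, 107066817 to 107067116, minus strand) has the YY1 core, both just after the start site.
Mrpl50: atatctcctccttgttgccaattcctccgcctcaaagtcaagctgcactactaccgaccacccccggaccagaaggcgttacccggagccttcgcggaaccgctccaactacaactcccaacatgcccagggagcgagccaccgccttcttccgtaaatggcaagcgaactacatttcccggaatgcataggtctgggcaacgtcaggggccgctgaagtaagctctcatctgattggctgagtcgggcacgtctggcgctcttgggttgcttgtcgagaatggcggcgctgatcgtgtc
Mrpl32: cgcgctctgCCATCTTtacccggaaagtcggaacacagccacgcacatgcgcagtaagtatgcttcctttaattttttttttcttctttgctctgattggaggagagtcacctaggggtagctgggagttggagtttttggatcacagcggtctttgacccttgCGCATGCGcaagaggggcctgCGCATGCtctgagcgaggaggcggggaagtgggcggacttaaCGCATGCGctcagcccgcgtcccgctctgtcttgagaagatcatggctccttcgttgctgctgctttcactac
Mrps21: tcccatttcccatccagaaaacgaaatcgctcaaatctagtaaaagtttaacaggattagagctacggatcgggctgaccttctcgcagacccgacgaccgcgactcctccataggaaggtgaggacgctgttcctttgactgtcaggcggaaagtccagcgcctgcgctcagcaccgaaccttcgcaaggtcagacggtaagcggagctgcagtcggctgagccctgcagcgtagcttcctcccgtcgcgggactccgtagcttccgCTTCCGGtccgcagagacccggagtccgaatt
Mrpl37: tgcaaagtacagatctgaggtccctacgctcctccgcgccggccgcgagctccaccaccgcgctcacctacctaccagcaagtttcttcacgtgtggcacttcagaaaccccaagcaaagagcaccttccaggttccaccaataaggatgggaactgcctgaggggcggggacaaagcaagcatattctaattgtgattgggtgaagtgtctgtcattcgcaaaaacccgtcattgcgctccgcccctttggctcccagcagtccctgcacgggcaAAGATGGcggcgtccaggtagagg
A match in such a window describes its letters and is no evidence of binding.

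Members have short 3′ untranslated regions, with a median of 329 bases in the longest coding transcript against 1140 bases for tested protein-coding genes. The 7-mers TCACTGC and GCAATTT, which were picked from earlier results on these same fold changes and so give no independent evidence, were in 4 and 3 of 77 members (5.19% and 3.90%), against 13.3% and 7.71% of 11886 protein-coding genes. The members with TCACTGC were Mrpl15, Mrpl48, Mrps7 and Mrps27, with a median log2 fold change of -0.016.

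Of the subunit genes with other names, 0 of 5 were called by limma, where 2.38% of all tested genes were called higher and 2.77% lower. The median log2 fold change of the 5 was 0.17. At an unadjusted p under 0.05, 2 of them passed, against 22.0% of all tested genes. Dap3, a GTP-binding small subunit protein, had 15.2 and 16.8 RPKM in siCtrl and 17.6, 18.03 and 17.7 RPKM in siEwsr1, and Ptcd3, a pentatricopeptide repeat protein of the small subunit, had 44.9 and 45.5 RPKM against 52.6, 53.7 and 48.4 RPKM. In both, every siEwsr1 library was higher, at adjusted p = 0.296 and 0.219 by limma. Chchd1 (log2 fold change 0.17) and Aurkaip1 (0.12), both of the small subunit, had overlapping groups. Gadd45gip1, a large subunit protein at the exit of the peptide tunnel, had 15.4 and 16.8 RPKM against 12.6, 10.99 and 14.3 RPKM, all lower, at -0.34 (adjusted p = 0.145, limma). Without siEwsr1 replicate 3, limma called 3 of the 5: Ptcd3 (0.26, adjusted p = 0.00475) and Chchd1 (0.29, adjusted p = 0.00845) higher, and Gadd45gip1 (-0.41, adjusted p = 0.00707) lower. Of all tested genes, 12.8% were called higher and 12.5% lower in that setting.

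The rest of the mitochondrial translation pathway also held no call with all libraries. In that fit 2.38% of all tested genes were called higher and 2.77% lower, so 0 calls in a short list carries little information. Of 28 assembly factors 0 were called (median log2 fold change 0.014), of 14 translation factors 0 (0.14) and of 23 genes of mitochondrial transcription and RNA handling 0 (0.15). In the last list 20 of 23 estimates were above 0. At an unadjusted p under 0.05, 4, 2 and 6 genes of these lists passed (14.3%, 14.3% and 26.1%), against 22.0% of all tested genes. The fit by limma-voom on the recovered reads called 0 in each list, against 2.38% of all tested genes higher and 3.12% lower. Without siEwsr1 replicate 3, limma called 3 higher and 1 lower of the assembly factors, 2 and 0 of the translation factors, and 6 and 1 of the transcription and RNA genes. In that setting 12.8% of all tested genes were called higher and 12.5% lower. Of 12 tested messages of the mitochondrial genome 0 were called, at a median of 0.36, and 5 (41.7%) passed at an unadjusted p under 0.05. All 12 estimates were above 0. In 7 (58.3%) every siEwsr1 library was above both controls, against 19.3% of all tested genes. The mitochondrial ribosomal RNAs had estimates of 0.88 (mt-Rnr1) and 0.76 (mt-Rnr2), with adjusted p = 0.237 and 0.218 by limma. mt-Rnr1 had 1774 and 800.4 RPKM in siCtrl and 1964, 2649 and 1965 RPKM in siEwsr1. For both ribosomal RNAs every siEwsr1 library was above both controls, replicate 2 was the highest library and siCtrl replicate 2 the lowest. Ribosomal RNA was depleted during preparation, so these levels also carry the efficiency of that step, whose part was not tested. Of 87 tested cytosolic ribosomal protein genes 0 were called, at a median of -0.090, with 58 estimates below 0 and 12 genes (13.8%) at an unadjusted p under 0.05. Without siEwsr1 replicate 3, 9 cytosolic ribosomal protein genes were called higher and 21 lower, and 6 messages of the mitochondrial genome were called higher. The shares of all tested genes in that setting were again 12.8% and 12.5%.

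Of 10 tested regulators of mitochondrial biogenesis, only Mycn was called, where 2.38% of all tested genes were called higher and 2.77% lower. This MYC family factor, a driver of neuroblastoma growth, rose from 7.33 and 7.57 RPKM in siCtrl to 9.88, 9.64 and 11.03 RPKM in siEwsr1, at 0.46 ± 0.108 (adjusted p = 0.0408, limma). All siEwsr1 libraries were above both controls, and the call was lost in 8 of 17 other settings, with adjusted p from 0.0060 to 0.349. Esrra, a nuclear receptor of energy metabolism, had an estimate of 0.46 (adjusted p = 0.133) and Gabpa, the DNA-binding subunit of GABP, of 0.32 (adjusted p = 0.152), while Nrf1 had -0.090 (adjusted p = 0.637), all by limma. Over the 10 tested regulators the median log2 fold change was 0.073, with 6 estimates above 0 and 4 below. Ppargc1a was at or near 0 in every library and was not tested.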

How the data were processed

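RNA of 5 libraries was compared, siCtrl (2) against siEwsr1 (3), grouped by title. Per the submitters' processing notes, the authors ran STAR 2.5.2b, then featureCounts 1.5.1, and edgeR without a stated version, with GRCm38 as build. Annotation release, strand setting, treatment of reads shared between genes and filters are not given in the sources at hand. No file header names a unit, and the deposited values behave as RPKM.

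Deposited values of 1 or more had lost their decimal point. It was restored so that value, exonic length (all exons, GENCODE M21) and counted reads gave a whole number of reads within 1e-06, without group labels. The counted reads of each library were themselves solved from its intact values. Of intact values, 98.5% to 98.6% were whole. Recovered reads summed to 0.0096% to 0.019% above these totals, although 54 genes had no whole reading. The cause was not tested. All 78 members were recovered, with odds of at least 33090 for the chosen reading. For 5 (Mrpl11, Mrpl16, Mrpl28, Mrpl43 and Mrpl49) the length was solved from the values. In 26, at least 1 library was read above the lowest whole position, in Mrps23 both siCtrl libraries. Because a decimal step is a factor of 10, the method prefers readings that bring libraries together, a change near that size would be missed, and one of several-fold can be misread or leave a gene out for low odds; no member was left out. The scoring was adjusted while the sums of recovered reads and the odds were watched.

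Genes reaching 10 reads, rescaled to the median library, in 2 or more libraries were fitted with limma 3.58.1 (R 4.3.3) on log2(RPKM + 0.1). Library scaling used a trimmed mean of ratios computed from the recovered reads (30% of ratios, 5% of levels trimmed). The fit had robust moderation, a variance trend on mean reads and Benjamini-Hochberg adjustment over all tested genes. That trend was chosen over one on level after both had been seen. The restoration and the fit were tested on simulated data. Precision differs with depth: 1 read is worth 0.0469 to 0.0665 CPM. Tested members had 242 or more reads in each library, and counting error remains part of the spread between libraries.

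The members, gene lists and motifs were chosen with earlier results of these data known. Genes named are the 5 members with the largest increase and decrease, the 5 highest and lowest by mean RPKM, members whose name and place differ or that have sister genes, the untested member, subunit genes with other names, called genes of the other lists, and Ewsr1; others named beside a count were chosen after their values were seen.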

Additional observations from a re-analysis of the deposited data

How the results depend on the processing

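Of 17 other settings, 15 also called 0 members. Some of these called few genes of any kind: 13 of 14694 without siCtrl replicate 1, 21 of 14467 without siCtrl replicate 2 and 60 of 27137 without the filter. In such settings a count of 0 members carries little information. Without siEwsr1 replicate 3, and with replicate number as a block, which drops that replicate too, members were called. The numbers of calls over the fits that leave out 1 library ran from 0 to 11 higher and from 0 to 7 lower. The replicate block gave 7 higher, against 10.3% of all genes, and 6 lower, against 10.1%, and all 13 were among the 18 called without siEwsr1 replicate 3. Same-numbered libraries did not deviate together (correlations 0.022 and -0.123). The deviations of the 2 controls mirror each other, so these values cannot show whether the numbers are a pairing.

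Leaving out 1 library moved the median log2 fold change between -0.023 and 0.053 over all members, between -0.026 and 0.043 for the large subunit and between -0.045 and 0.064 for the small, and their difference between -0.038 and 0.026. With the block these were -0.019, -0.026, 0.00093 and -0.026. Without genes read above the lowest decimal position, the small subunit median was 0.058 and the difference -0.036. The cause was not tested. No scaling gave a median of -0.0011.

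Over all genes 770 were called. The count was 264 with the variance trend on level (an alternative added after seeing the data), 386 with a pseudocount of 1, 60 without the filter, 2974 with the block, and 13 to 3696 without 1 library. Of 22 named genes, the sign turned for Mrps18b and Mrpl58 without siEwsr1 replicate 2 (ranges over left-out libraries -0.27 to 0.0092 and -0.11 to 0.014), 24 values were newly called and 8, all of Mycn, no longer called.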
